A study of Mus musculus with 9 samples.

Results

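The cytosolic ribosomal protein genes code for the proteins of the ribosome outside mitochondria, and were chosen by symbol alone: *Rpl* or *Rps* followed by a digit, with *Rplp0*, *Rplp1*, *Rplp2* and *Rpsa*. Symbols with -ps, the *Rps6k* kinases and *Rps19bp1* were left out, and no measured value entered the choice. The rule found 66 of the 25206 genes with a value on the array, of which 33 belong to the large subunit, 23 to the small subunit and 10 are paralogs, close relatives of a ribosomal protein gene. Among the paralogs, RefSeq lists *Rpl6l* as a pseudogene and *Rps4l* as a transcribed pseudogene. Both were kept because their symbols fit the rule. The values came from pulmonary lymphatic endothelial cells (PLECs) of C57BL/6NCrl mouse fetuses at embryonic days E16.5, E17.5 and E18.5, with 3 samples a day. Each sample pooled 10 to 21 lungs from 2 litters, sorted as CD45-/Epcam-/CD31+/Vegfr3+/Lyve1+/Pdpn+ cells, and was hybridised to its own Affymetrix Mouse Gene 2.0 ST array. No genotype or treatment was varied, the groups differ by embryonic day, and the p-values measure the spread between such pools. The gate defines the cells by surface proteins, so what else passed through it can only be seen in the marker genes given at the end.

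A ribosome is built in the nucleolus from ribosomal RNA and a fixed set of proteins, most of them needed in equal numbers. The small subunit reads the messenger RNA and the large subunit joins amino acids, and the stalk of the large subunit recruits the translation factors. Ribosomal protein messages are among the most abundant of growing cells, and in mammals they typically begin with a 5′ terminal oligopyrimidine (TOP) tract, a C followed by further pyrimidines, through which the mTOR pathway controls their translation. These genes also have many processed pseudogenes with nearly the same sequence, so a probe for 1 of them may capture RNA of another locus.

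The array saw this gene family very unevenly. A gene was tested where it exceeded the array's own median (3.79 to 3.91 on the log2 scale) on at least 1 of 9 arrays, and 51 members passed: 27 of the large subunit, 18 of the small subunit and 6 paralogs. 37 members exceeded the median on all 9 arrays. *Rpl6* and *Rpl36a* did so on 1 array, of E16.5, and *Rps23rg1* and *Rps27a* on 1 array, of E17.5. Such a member was tested only through the day on which it was high. *Rpl14* exceeded the median only in E16.5 replicate 1 and E17.5 replicate 2, and *Rpl7* on 4 arrays, none of E17.5. The low E18.5 values of *Rpl14* and the low E17.5 values of *Rpl7* are likewise tied to the filter. The other 15 members lay at or below the median on every array, with mean log2 values of 1.52 to 3.16, and were not tested. They are the large subunit genes *Rpl3*, *Rpl9*, *Rpl10*, *Rpl24*, *Rpl30* and *Rpl37*, the small subunit genes *Rps2*, *Rps15*, *Rps16*, *Rps26* and *Rps29*, and the paralogs *Rpl3l*, *Rpl10l*, *Rpl32l* and *Rpl39l*. A further 24 protein-coding genes that fit the rule, *Rpl11*, *Rpl12*, *Rpl13a*, *Rplp2* and *Rps6* among them, had no value under their Entrez identifier and could not be analysed here. Array levels depend on the probes, so a low value does not order a gene below another.

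The start-site windows are shown because TOP tracts lie there. Each window holds 15 bases on either side of the first start that RefSeq lists (build GRCm38.p6), 5′ to 3′ on the gene's strand, with the longest unbroken run of C and T in capitals where it has at least 6 bases. The first 5 genes had such a run, and the last 3 had none.
Rpl15 (chr14:18270972-18271001, minus strand): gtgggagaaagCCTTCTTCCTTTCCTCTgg
Rpl14 (chr9:120571502-120571531, plus strand): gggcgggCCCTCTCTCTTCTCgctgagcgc
Rpl4 (chr9:64173372-64173401, plus strand): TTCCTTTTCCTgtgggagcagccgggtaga
Rps24 (chr14:24490663-24490692, plus strand): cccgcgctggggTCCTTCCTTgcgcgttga
Rps27l (chr9:66946071-66946100, plus strand): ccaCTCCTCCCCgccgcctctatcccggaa
Rpl36al (chr12:69184053-69184082, minus strand): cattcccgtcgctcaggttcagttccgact
Rpl5 (chr5:107900513-107900542, plus strand): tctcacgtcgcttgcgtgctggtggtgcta
Rpl23 (chr11:97782425-97782454, minus strand): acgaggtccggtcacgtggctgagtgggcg

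Of the 66 members, 48 matched a RefSeq start, and 23 of them (47.92%) held a pyrimidine run of at least 6 bases, against 29.08% of the 27025 genes in the same table. On the opposite strand the count was 6 of 48 members (12.5%), against 32.09% of all genes. The runs of *Rpl4* and *Rps27l* lie before the listed start and those of *Rpl14*, *Rpl15* and *Rps24* span it, so the listed start need not be the first base of the message. A run is a description of these letters, and where none was found nothing follows about the factor that reads such tracts.

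No ribosomal protein gene passed the test for a change with embryonic day, while most of their estimates lay below 0. In E18.5 vs E16.5, 39 of 51 members had a lower mean at E18.5, against 54.6% of the 14096 genes tested, and their median log2 change was -0.24, against -0.04 over all genes tested. The estimates ran from -0.88 for *Rpl5* to 0.40 for *Rpl10a*. By limma with Benjamini-Hochberg adjustment over all genes tested, 0 of 51 members had an FDR q under 0.05 in either direction, where 6.21% of all genes were called lower and 3.77% higher. At an unadjusted p under 0.05, 11 members were lower and 0 higher, where 16.9% and 11.1% of all genes were. *Rpl14* is among the 11, although it entered the tested set through no E18.5 array. In bulk RNA, fewer cells of a type and less RNA per cell cannot be told apart.

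**Figure D1:**
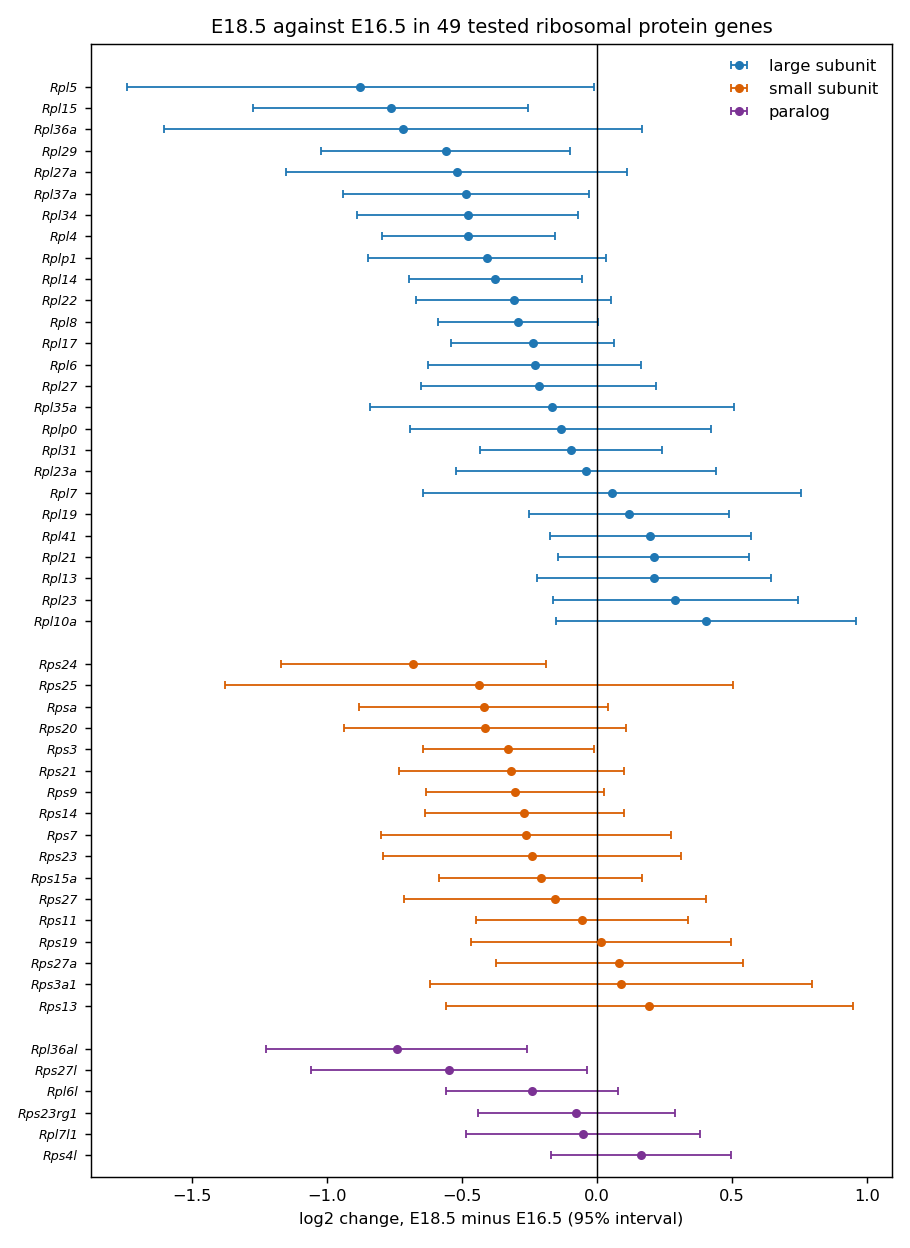
Log2 change of 49 tested ribosomal protein genes, E18.5 minus E16.5, with 95% intervals from limma on 3 arrays a day, grouped by subunit and sorted within each group. Points left of 0 are lower at E18.5, and they make up 37 of the 49, with *Rpl5* at -0.88 and *Rpl10a* at 0.40.

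The median changes were close in both subunits, and the difference between subunits was not tested. Among the large subunit genes 20 of 27 estimates were below 0 with a median of -0.23, among the small subunit genes 14 of 18 with a median of -0.27, and among the paralogs 5 of 6 with a median of -0.16. At an unadjusted p under 0.05, 7 of 27 large and 2 of 18 small subunit genes were lower, where 16.9% of all genes were. Among members with a mean above 6, the medians were -0.44 for 10 large and -0.31 for 8 small subunit genes. The 95% interval of the change lay within 1 log2 unit of 0 for 42 of 51 members, where 79.6% of all genes did, and within 0.5 for 8, where 28.2% of all genes did.

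The 8 members with the most negative estimates were *Rpl5*, *Rpl15*, *Rpl36al*, *Rpl36a*, *Rps24*, *Rpl29*, *Rps27l* and *Rpl27a*, all between -0.88 and -0.52. *Rpl15*, a core large subunit protein that is mutated in some human Diamond-Blackfan anaemia families, had log2 values of 6.52, 6.46 and 5.94 at E18.5, against 7.35, 6.73 and 7.13 at E16.5. The samples did not overlap, and the change was -0.76 (SE 0.216, FDR q = 0.0708, limma), or 1.70-fold lower. Most of the difference was already present a day earlier, since the E17.5 samples read 6.45, 6.26 and 6.71.

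*Rpl36al*, a paralog of *Rpl36a*, had 5.46, 5.12 and 5.04 at E18.5, against 5.93, 5.61 and 6.32 at E16.5. Again no E18.5 sample reached the lowest E16.5 sample, and the change of -0.74 (SE 0.205, FDR q = 0.0664, limma) had the smallest adjusted p of the family. Its parent *Rpl36a* gave 2.97, 2.37 and 2.94 at E18.5, against 3.61, 2.66 and 4.17 at E16.5, and these samples overlapped (-0.72, SE 0.375, FDR q = 0.255, limma). *Rpl36a* exceeded the array median only in E16.5 replicate 3, the sample through which it entered the tested set. Its estimate is therefore tied to the filter and is no second reading of the change in *Rpl36al*. The array levels of the 2 genes depend on their probes.

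*Rps24*, a small subunit protein needed to process the precursor of 18S ribosomal RNA, had 4.83, 4.28 and 4.14 at E18.5, against 4.96, 4.97 and 5.35 at E16.5. The highest E18.5 sample lay just below the lowest E16.5 sample, with a change of -0.68 (SE 0.208, FDR q = 0.0877, limma). *Rpl29* had 8.46, 8.48 and 8.73 at E18.5, against 9.54, 8.89 and 8.92 at E16.5, a change of -0.56 (SE 0.195, FDR q = 0.119, limma). Its E16.5 spread came from replicate 1, which stood well above the other 2 samples.

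*Rpl5*, which carries 5S ribosomal RNA to the ribosome together with *Rpl11* and binds Mdm2 when assembly fails, had the most negative estimate and a wide spread within each later day. Its values were 4.85, 5.36 and 3.90 at E18.5, against 5.34, 5.42 and 5.97 at E16.5, so the days overlapped. The change was -0.88 with a 95% interval of -1.74 to -0.01 (FDR q = 0.173, limma). The E17.5 samples read 5.29, 4.14 and 5.29, so that 1 sample of each later day sat far below the other 2.

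*Rpl4*, a large subunit protein that lines the exit tunnel, was the only member with a mean log2 value above 8 whose 3 days did not overlap. Its log2 values were 11.18, 11.26 and 11.11 at E16.5, 10.94, 10.92 and 11.02 at E17.5, and 10.78, 10.88 and 10.46 at E18.5. Its mean ± SD was 11.18 ± 0.08, 10.96 ± 0.05 and 10.71 ± 0.22 on the 3 days (n = 3 each). The change in E18.5 vs E16.5 was -0.48 (SE 0.136, FDR q = 0.0726, limma), or 1.39-fold lower.

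Samples of E18.5 lay wholly below those of E16.5 for 8 of 51 members, *Rpl4*, *Rpl14*, *Rpl15*, *Rpl29*, *Rpl34*, *Rpl36al*, *Rps3* and *Rps24*, where 18.3% of all genes did so. *Rpl14* exceeded the array median on no E18.5 array, so its place among these is tied to the filter. No tested member lay wholly above, where 11.9% of all genes did. *Rpl34* and *Rps3*, the second of which sits at the messenger RNA entry of the small subunit, changed by -0.48 and -0.33 with FDR q of 0.130 and 0.163 (limma). Among members not tested, *Rps15* had 3.32, 3.14 and 3.22 at E18.5, against 2.57, 2.41 and 3.12 at E16.5, values at or below the median on every array.

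The 8 most positive estimates belonged to *Rpl10a*, *Rpl23*, *Rpl13*, *Rpl21*, *Rpl41*, *Rps13*, *Rps4l* and *Rpl19*, between 0.40 and 0.12. *Rpl23*, another large subunit protein known to bind Mdm2, had 6.50, 6.11 and 6.18 at E18.5, against 6.30, 5.65 and 5.96 at E16.5, a change of 0.29 with a 95% interval of -0.16 to 0.74. *Rpl10a* had 3.46, 4.29 and 4.14 at E18.5, against 3.80, 3.37 and 3.51 at E16.5, close to the array median on each array. In both genes the days overlapped, and their FDR q were 0.358 and 0.303 (limma).

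The brightest members moved together from sample to sample, and not only with the day. Of the tested members 9, among them *Rpl4*, *Rplp1*, *Rpl22*, *Rps9*, *Rpl8*, *Rps21*, *Rpl6l* and *Rpl29*, had a mean log2 value above 8, a level chosen after the values were seen. *Rpl6l*, listed as a pseudogene, had a mean of 9.09, while *Rpl6* had 3.34. All 9 had day means that descended through E16.5, E17.5 and E18.5, and their median change in E18.5 vs E16.5 was -0.32, against -0.08 over the 1213 genes of that level, of which 58.2% were below 0. By limma 0 of the 9 were called lower, where 6.76% of the genes of that level were, and 2 had an unadjusted p under 0.05, *Rpl4* and *Rpl29*, where 19.8% of that level did. Over all tested members, day means descended in 28 of 51, where 30.1% of all genes did, and ascended in 4 (*Rpl13*, *Rpl21*, *Rpl23* and *Rpl41*), where 20.9% did.

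**Figure D2:**
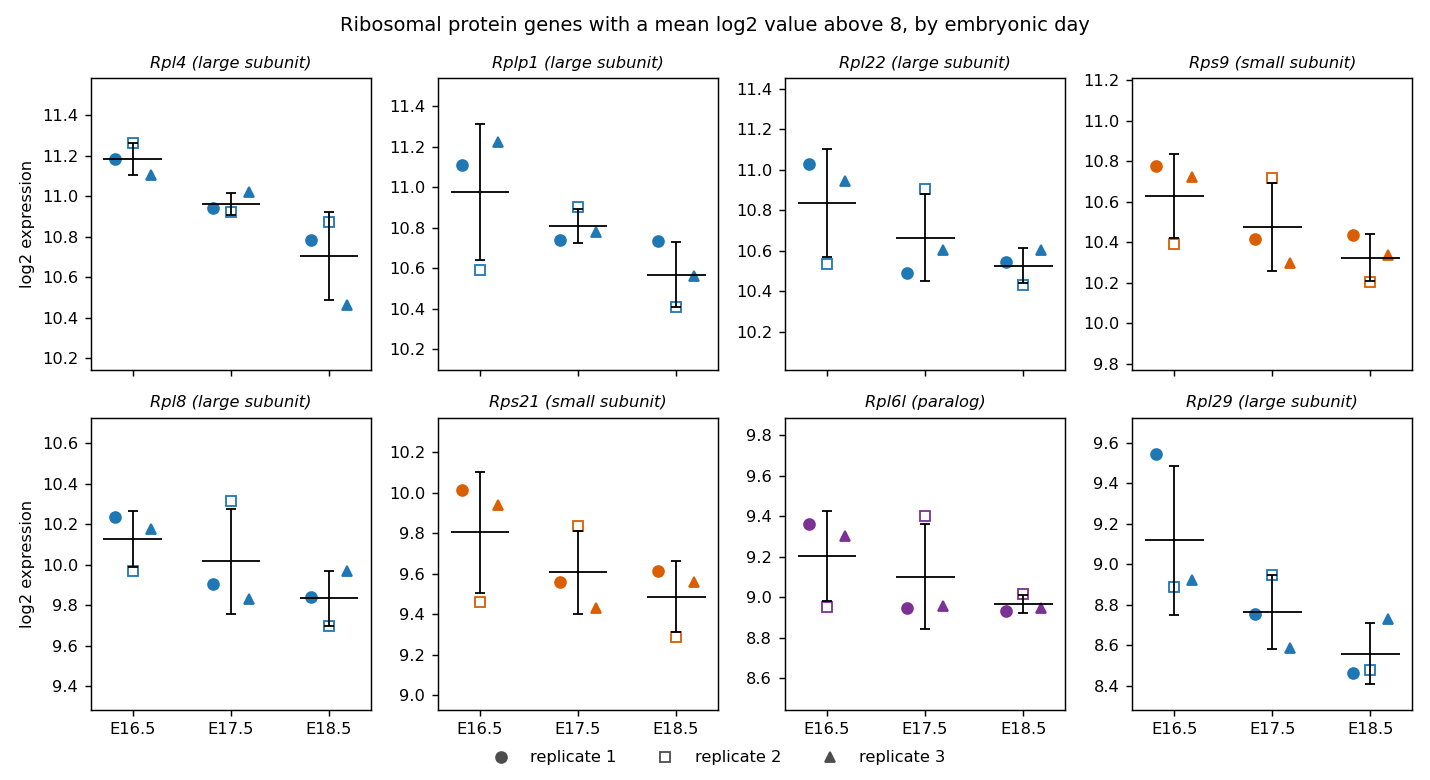
Log2 expression of 8 ribosomal protein genes with a mean above 8, 1 panel a gene and 1 point an array, in the order E16.5, E17.5, E18.5; lines are day means and bars the SD (n = 3), and each panel spans the same height. In 7 of the 8 panels replicate 2 (open squares) is the lowest sample at E16.5 and the highest at E17.5, and *Rpl4* is the exception. *Rpl6l* is listed as a pseudogene.

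The samples E16.5 replicate 2 and E17.5 replicate 2 broke the day order in nearly all of these genes. *Rplp1*, an acidic protein of the stalk, had 11.11, 10.59 and 11.22 at E16.5, 10.74, 10.90 and 10.78 at E17.5, and 10.73, 10.41 and 10.56 at E18.5. *Rps9*, a protein of the small subunit body, had 10.77, 10.39 and 10.72 at E16.5, 10.41, 10.71 and 10.30 at E17.5, and 10.43, 10.20 and 10.34 at E18.5. In each gene E16.5 replicate 2 lay within the range of the E18.5 samples, and in *Rps9* E17.5 replicate 2 lay beside the 2 higher E16.5 samples. The changes in E18.5 vs E16.5 were -0.41 for *Rplp1* (FDR q = 0.206, limma) and -0.30 for *Rps9* (FDR q = 0.205, limma).

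The same 2 samples stood apart over the whole family. E16.5 replicate 2 was the lowest of its day in 40 of 51 members, against 38.68% of all genes tested. E17.5 replicate 2 was the highest of its day in 30 of 51, against 37.24% of all genes. Both held in 26 of 51 members, and in 8 of the 9 bright ones, against 20.47% of all genes tested and 27.29% of those with a mean above 8. E18.5 replicate 2 was the lowest of its day in 23 of 51 members, against 36.95% of all genes tested. Among the 21 members with a mean above 6 it was the lowest in 14, against 33.85% of the 5711 genes of that level. Replicates carry no order, and what set these pools apart was not tested.

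Per array, the number of members above their own median over 9 arrays was 41, 13 and 38 at E16.5, 13, 33 and 15 at E17.5, and 12, 11 and 19 at E18.5. Without E16.5 replicate 2, 22 of 51 members were lower at E18.5 at an unadjusted p under 0.05, where 15.8% of all genes were in that fit. Without E16.5 replicate 1 or replicate 3 there were 5 of 50, where 13.2% of all genes were. The spread within days was wider for the members, with a median SD of 0.28, than for all genes tested, with 0.22, though not for the 9 bright members (0.20, against 0.21 for genes of that level). E17.5 replicate 2 was instead the lowest of its day in 11 of 51 members (37.63% of all genes). Of these, *Rps23* had 3.59 and *Rps15a* 4.10 in E17.5 replicate 2, the lowest value of each gene on any array.

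**Figure D3:**
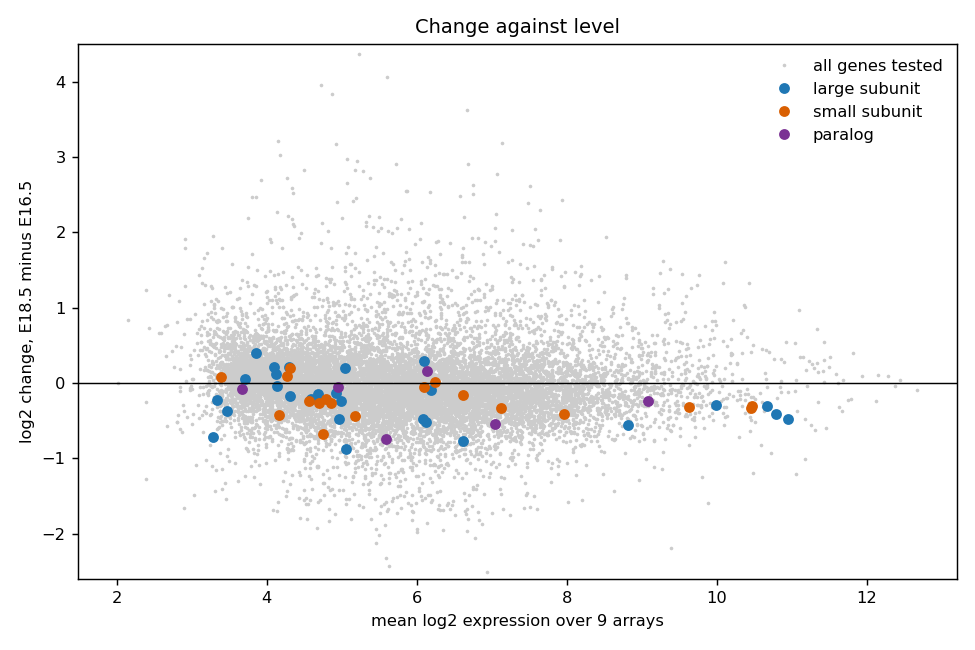
Log2 change in E18.5 vs E16.5 (vertical) against the mean log2 value over 9 arrays (horizontal) for the 14096 genes tested (grey) and the 51 ribosomal protein genes (coloured by subunit). The 9 members above 8 all lie below 0, and of the 30 at 6 or below 21 do.

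Estimates below 0 were the more common ones among brighter and dimmer members alike. Among the 21 members with a mean above 6, 18 were below 0 with a median of -0.32, against 62.0% and -0.11 for the 5711 genes of that level, and 0 were called lower by limma (7.86% of that level), with 6 at an unadjusted p under 0.05 (21.2% of that level). Among the 30 members at 6 or below, 21 were below 0 with a median of -0.19, against 49.5% and 0.00342 for the 8385 genes of that level. Whether the shift differed between the levels was not tested. Both levels were chosen after the values were seen.

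The paralogs did not move as a block. *Rps27l*, which in human cells is induced by p53, had 6.93, 6.49 and 7.01 at E18.5, against 7.52, 6.96 and 7.60 at E16.5, a change of -0.55 (FDR q = 0.154, limma). Its parent *Rps27* changed by -0.16 (FDR q = 0.697, limma), and the difference between the 2 genes was not tested. *Rps4l* (0.16), *Rpl6l* (-0.24), *Rps23rg1* (-0.08) and *Rpl7l1* (-0.05) also missed the test. *Rpl3l* and *Rpl10l*, known for muscle and testis, were among those at or below the median on all arrays.

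Genes with roles beyond the core of the ribosome gave no call either. *Rpsa*, also known as the laminin receptor, had 4.002, 3.67 and 4.20 at E18.5, against 4.24, 4.18 and 4.71 at E16.5 (-0.42, FDR q = 0.212, limma). *Rps27a*, made as a fusion with ubiquitin, changed by 0.08 and the stalk protein *Rplp0* by -0.14. Of 17 ribosomal protein genes linked to Diamond-Blackfan anaemia in humans, 10 had a value and 8 were tested, with 0 called (6.21% of all genes lower), 3 lower at an unadjusted p under 0.05 (16.9% of all genes), and a median of -0.24. Under other names, *Rack1*, a scaffold on the head of the small subunit, had 10.33, 10.03 and 10.35 at E18.5, against 10.76, 10.32 and 10.79 at E16.5 (-0.39, FDR q = 0.182, limma), with replicate 2 again the lowest at E16.5. *Fau*, which codes for the small subunit protein eS30 fused to a ubiquitin-like domain, changed by 0.22 (FDR q = 0.360, limma).

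Single days added little. Over the 3 days together 0 members were called by the moderated F test of limma (smallest FDR q = 0.0658, *Rpl36al*), where 9.09% of all genes were, and 5 had an unadjusted p under 0.05 (26.5% of all genes): *Rpl36al*, *Rpl15*, *Rpl4*, *Rps24* and *Rpl29*. In E17.5 vs E16.5, 0 members were called by limma (0.149% of all genes lower, 0 higher), and at an unadjusted p under 0.05 *Rpl15* was lower and *Rps3a1* higher (9.27% and 5.44% of all genes). In E18.5 vs E17.5, 0 were called (0.717% of all genes lower, 1.18% higher), and *Rpl36al*, *Rpl36a* and *Rps3a1* were lower and 0 members higher at an unadjusted p under 0.05 (9.04% and 8.56% of all genes).

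The median change of the members was -0.13 over the first day and -0.14 over the second, with 36 and 39 of 51 estimates below 0, where 53.5% and 55.7% of all genes were. These 2 steps share the E17.5 samples. *Rps3a1*, a small subunit protein, departed from this order, with 4.63, 3.40 and 3.94 at E16.5, 4.92, 4.34 and 4.94 at E17.5, and 4.03, 3.88 and 4.33 at E18.5. The test of whether the second step differed from the first gave 0 members by limma, as it did for all genes tested (0). At an unadjusted p under 0.05 it gave 2, *Rps3a1* in the lower direction and *Rpl7* in the higher (3.48% and 4.63% of all genes). *Rpl7* had 2.79, 3.51 and 3.55 at E17.5, each below its array's median, so it entered the tested set only through the other days.

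Several genes that build ribosomes passed the test, with 6.21% of all genes called lower as background. Of 41 ribosome assembly genes 9 fell and 0 rose in E18.5 vs E16.5 (FDR q under 0.05, limma), 40 estimates were below 0 and the median was -0.55. *Dkc1*, the pseudouridine synthase of box H/ACA particles, had 4.90, 4.69 and 4.70 at E18.5, against 5.62, 6.33 and 6.13 at E16.5 (-1.26, SE 0.190, FDR q = 0.0113, limma). *Nop56*, a core protein of box C/D particles, changed by -1.06, *Polr1a*, the largest subunit of RNA polymerase I, by -0.83, and *Nop2*, an rRNA methyltransferase, by -0.79.

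Of 34 tested initiation factors 5 fell and 0 rose, with 31 below 0 and a median of -0.32. *Eif2b1*, a subunit of the exchange factor that recharges eIF2, had 5.62, 5.45 and 5.73 at E18.5, against 6.39, 6.38 and 6.36 at E16.5 (-0.77, SE 0.111, FDR q = 0.00981, limma). *Eif2s1*, *Eif1b* and *Eif3b* fell by 0.76, 0.67 and 0.54. Of 10 genes grouped under elongation and termination 3 fell and 0 rose, *Eef1e1*, *Eef1b2* and *Eif5a*, with 10 below 0 and a median of -0.49. *Eef1e1* bears an elongation factor symbol but codes for an auxiliary protein of the tRNA synthetase complex.

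In 3 further lists 0 genes were called by limma, with 6.21% of all genes called lower and 16.9% lower at an unadjusted p under 0.05 as background. Of 9 escorts and importers of ribosomal proteins, 9 estimates were below 0 (median -0.24, 3 lower at an unadjusted p under 0.05), led by *Heatr3* and *Ipo5* at FDR q of 0.0694 and 0.133. Of 14 genes of the Myc and mTOR pathways 11 were below 0 (median -0.17, 3 lower at an unadjusted p under 0.05), led by *Mlst8* and *Akt1s1*. The Myc and mTOR list mixes activators and inhibitors, *Akt1s1* among the latter, so its median gives no direction of pathway activity. Of 9 snoRNA host genes, whose introns carry the guides for rRNA modification, 8 were below 0 (median -0.46, 5 lower at an unadjusted p under 0.05), led by *Snhg7* and *Snhg3*.

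The counts of these lists changed with the samples used, as did the share of all genes called lower. Over the 6 lists together 17 genes fell, where 6.21% of all genes did. Without E16.5 replicate 3, 1 fell (1.55% of all genes), and without E16.5 replicate 1, 6 (2.32%). Without E18.5 replicate 1, 6 fell (3.38% of all genes), and without E18.5 replicate 3, 9 (4.5%). Whether the lists lost more calls than other genes was not tested. With the spread estimated on all 9 arrays 31 fell, and 4 ribosomal protein genes were then called lower as well, *Rpl36al*, *Rpl15*, *Rpl4* and *Rps24*, or 7.84% of the members, where 9.08% of all genes were. The same 4 were called lower with each array centred on its median, where 9.48% of all genes were, and *Rps24* was without E18.5 replicate 1 (FDR q = 0.0431, limma), where 3.38% of all genes were.

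**Figure D4:**
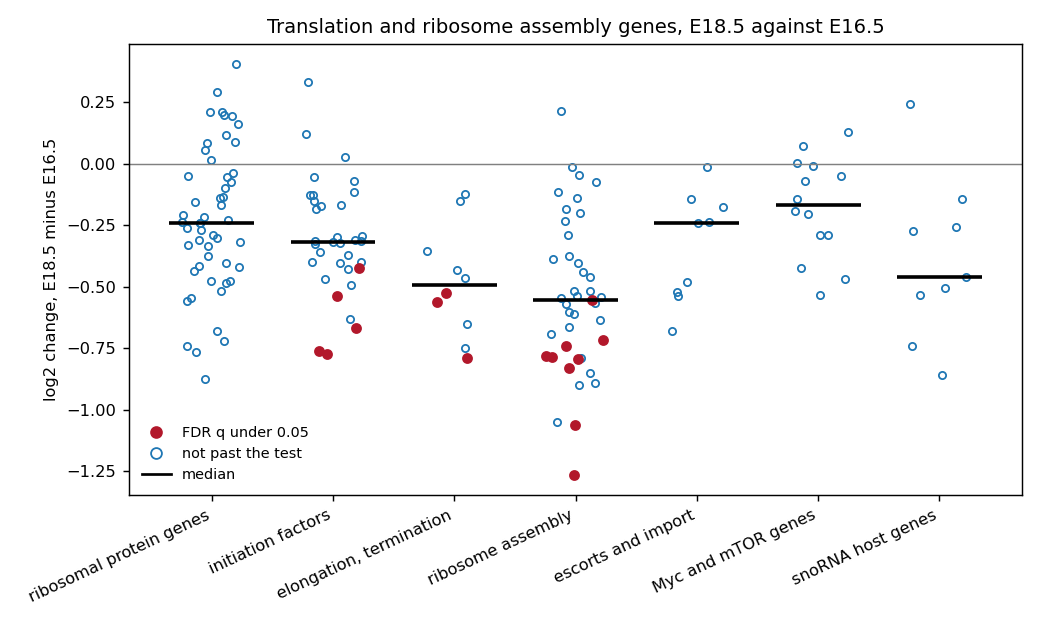
Log2 change in E18.5 vs E16.5 for each tested gene of 7 lists, with the ribosomal protein genes at the left; filled red points passed an FDR q under 0.05, open points did not, and bars are medians. The ribosomal protein genes have a median of -0.24 and no filled point, and the ribosome assembly genes a median of -0.55 and 9 filled points.

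Marker genes moved with the same days. All 9 markers of dividing cells fell in E18.5 vs E16.5 (median -1.58), and their average log2 value per array was 6.32 to 6.71 at E18.5, against 8.02 to 8.21 at E16.5. All 6 markers of alveolar type 1 cells rose (median 1.57, 7.002 to 7.36 at E18.5, against 5.34 to 5.46 at E16.5), and 3 of 8 alveolar type 2 markers did. Of 7 airway markers *Scgb1a1* rose (4.06, FDR q = 0.00347, limma), of 8 fibroblast markers *Dpt* (3.19, FDR q = 0.00468, limma), and of 6 blood endothelial markers *Car4* (3.62, FDR q = 0.00347, limma), while *Plvap* fell by 0.76 (FDR q = 0.0402, limma). Estimates were below 0 in 1 of these airway, 3 of these fibroblast and 3 of these blood endothelial markers. Averages at E18.5 vs E16.5 were 6.19 to 6.60 vs 5.01 to 5.95 (airway) and 6.53 to 7.89 vs 6.38 to 7.07 (fibroblast). They were 8.97 to 9.34 vs 8.37 to 8.82 for blood endothelial and 7.41 to 7.84 vs 5.44 to 6.48 for alveolar type 2 markers. Of the 4 genes of the positive sort gate, *Pecam1*, *Flt4*, *Lyve1* and *Pdpn*, and the lymphatic transcription factor *Prox1*, all above the median on some array, *Pdpn* rose and the other 4 were not called, and the average of the 5 was 8.36 to 8.74 at E18.5, against 8.11 to 8.39 at E16.5. Of 7 leukocyte markers with a value 3 lay below the median on all arrays, and platelet markers averaged 6.13 to 8.30 at E18.5, against 5.85 to 6.22 at E16.5, with 0 of 6 called and 4 higher at an unadjusted p under 0.05. Of 5 erythroid markers tested 0 were called, 1 was lower at such a p, and the median was 1.18, with averages over the 6 with a value of 6.20 to 7.08 at E18.5, against 5.23 to 7.42 at E16.5. The part of these cells in the values of the ribosomal protein genes was not tested.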

How the data were processed

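Lungs were pooled, sorted and profiled by array as described above, with 9 samples in 3 groups given by the labels. Per the labels and the study's methods, the authors normalised the array files by RMA (affy 1.36.1 in R 2.15.1, with the Brainarray Entrez Gene mapping 17.0.0) and deposited 1 log2 value per gene and array; these tools come from the submitters' processing notes and the methods. RMA's quantile step forces all arrays to nearly 1 distribution, so a shift shared by most genes would not be seen. The array medians over all genes were 3.79, 3.80 and 3.82 at E16.5, against 3.91, 3.86 and 3.87 at E18.5. Centring each array on its median therefore lowers the estimates in E18.5 vs E16.5. No batch was given in the sources used here, and no 2 arrays were identical (correlations of 0.971 to 0.991). Symbols came from RefSeq by Entrez identifier and otherwise from the platform table, for 23740 of 25206 genes.

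Genes above the median of at least 1 array (14096) were tested with limma 3.58.1 in R 4.3.3: a moderated F test and the steps between neighbouring days on 9 arrays, and E18.5 vs E16.5 on the 6 arrays of those days, with Benjamini-Hochberg adjustment over all genes tested and a threshold of FDR q under 0.05. The fits were tested on simulated data. Named were called members, the 8 largest estimates in each direction, paralogs, stalk and 5S proteins, genes with other roles or names, and, of each further list, up to 4 called genes with the largest change, or the 2 with the smallest p where none was called; bright and day-breaking members were named after their values were seen. Members and lists were chosen with earlier results of these data known. A few members are counted but not reported by name here. Precision is limited by 3 arrays a day. Alternatives were other filters, replicate block, centring, second quantile normalization, intensity trend, array weights, no moderation, 9-array fit, members without paralogs, brighter members and leaving out each array.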

Additional observations from a re-analysis of the deposited data

How the results depend on the processing

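The median change of the members in E18.5 vs E16.5 stayed between -0.37 and -0.19 under all alternatives run, and 0 members were called in E17.5 vs E16.5, in E18.5 vs E17.5 or in the difference of the 2 steps under any of them. Members called lower in E18.5 vs E16.5, 0 as reported, came to 4 with each array centred on its median and 4 in the fit on all 9 arrays (9.48% and 9.08% of all genes). The replicate block gave 1 (*Rps27l*), where 6.02% of all genes were called lower. Leaving out each array in turn gave 0 to 1, the 1 being *Rps24* without E18.5 replicate 1 (3.38% of all genes). Over the 3 days, 2 were called after centring (*Rpl36al* and *Rpl4*) and 0 to 2 when leaving out each array. The latter were *Rpl36al* and *Rpl36a* without E16.5 replicate 2, and *Rps24* without E18.5 replicate 1. As reported, 9.09% of all genes were called over the 3 days, and the shares in these other fits are not given here. Members lower at an unadjusted p under 0.05, 11 as reported, numbered 19 with the replicate block, 18 after centring, 4 without moderation, 6 among members with a mean above 6, 2 among those above 8, and 5 to 22 when leaving out each array. Of all genes, 16.9% were lower at such a p as reported, 18.9% with the replicate block, 22.8% after centring and 12.5% without moderation. The shares were 21.2% of genes with a mean above 6, 19.8% above 8, and 13.2% to 17% when leaving out each array. Members higher at such a p, 0 as reported, numbered 1 without a filter (a larger set that includes the untested genes) and 0 to 1 when leaving out each array. The share of all genes higher at such a p was 11.1% as reported and is not given here for those fits. Genes of the related lists called lower, 17 as reported, numbered 7 without a filter, 35 after centring, 10 with an intensity trend, 0 without moderation, 31 in the 9-array fit and 1 to 17 when leaving out each array. Of all genes, 6.21% were called lower as reported, 2.11% without a filter, 9.48% after centring and 4.9% with an intensity trend. Without moderation 0 of all genes were, in the 9-array fit 9.08%, and 1.55% to 6.26% when leaving out each array. The median of all genes was 0.0169 without a filter and -0.12 after centring, against -0.04 as reported.

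The replicate numbers did not pair the samples: 2 of 9 same-numbered pairs had deviations that correlated above 0.1 (range -0.36 to 0.29). For 0 of 9 arrays was the same-numbered sample the closest one in each of the remaining days. The splits by mean level were chosen after seeing the data. Probes of these genes can share sequence with pseudogenes, many members lie near the array median, where arrays resolve little, and 3 pools a day limit each test.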

Other observations

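Rows named as ribosomal pseudogenes (-ps) were left out of the family, and 12 of 19 were tested. Of these, 9 estimates in E18.5 vs E16.5 were below 0, where 54.6% of all genes tested were. The median of the 12 was -0.16, against -0.04 over all genes tested. *Rpl15-ps6* changed by -0.44 (FDR q = 0.0466, limma) and was the only one called, where 6.21% of all genes were called lower. *Rpl15* changed by -0.76 (FDR q = 0.0708, limma), and the difference between these rows was not tested. *Rpl34-ps2* and *Rpl31-ps20*, at mean log2 values of 10.4 and 9.94, were brighter rows than *Rpl34* and *Rpl31*, and changed by -0.15 and -0.10.

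At least 2 equal values, to all digits given, were found in 14 of 66 members. How many probes stand behind these rows was not examined.

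Of the 10 members that were lower at an unadjusted p under 0.05 and had a RefSeq start, 6 held a pyrimidine run of at least 6 bases in the window of 30 bases, and of the other 26 tested members with a start 12 did.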
